A study of Saccharomyces cerevisiae with 58 samples.

Results

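The passage of wild-type budding yeast from freshly elutriated G1 cells into growth and the first S phase was described from 8 of the 58 Affymetrix arrays of a cell cycle time series. The 8 arrays were chosen by strain and by the time in the sample titles. The early window held the wild-type arrays at 30, 38, 46 and 54 min, and the late window those at 78, 86, 94 and 102 min. The strain was BF264-15DU, MATa and bar1, and the cultures grew in YEPDextrose with 1 M sorbitol at 30 °C. Elutriation sorts cells by size, and was used to collect G1 cells. The design gives 2 biological replicates per strain. Culture 1 supplied the arrays at 30, 46, 78 and 94 min and culture 2 those at 38, 54, 86 and 102 min, so each culture contributed 2 arrays to each window and n was 2 cultures throughout. The comparison strain was the same background, MATa, with clb1 disrupted by URA3, clb2 by LEU2, clb3 by TRP1, clb4 by HIS2, clb5 by ARG4 and clb6 by APE1, and it carried GAL1-CLB1:LEU2. It lacked all B-type cyclins other than what the galactose-driven CLB1 copy supplies, and its label lists no bar1 allele. Its arrays at the same 8 times were used, together with 6 wild-type arrays taken 96 min after the main ones.

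Small G1 daughter cells must grow to a critical size before they pass Start, the commitment to a new division. Growth in yeast is carried largely by making ribosomes, and the genes for ribosome assembly are switched on together when nutrient signalling through Ras, protein kinase A, TOR and Sch9 is high. The same signalling holds down the general stress response, a large set driven by Msn2 and Msn4 that protects cells from heat, oxidation and starvation. Passage through Start is carried by the transcription factors SBF and MBF, which turn on G1 cyclins, bud genes and the genes of DNA replication. The series holds no culture that was not elutriated. Time, growth in the medium and progress through G1 moved together in these cultures and cannot be told apart.

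Levels are given as log2(intensity + 1), and changes as the late mean minus the early mean on that scale with the standard error (SE) of limma's fit over 4 culture means. Of 5449 genes, 1152 (21.1%) were called higher and 1169 (21.5%) lower in the late window at a Benjamini-Hochberg adjusted p under 0.05. All 4 late arrays lay above all 4 early arrays for 1125 genes (20.6%) and below them for 1271 (23.3%). A change of more than 2-fold was seen upward in 337 genes, all called, and downward in 425 genes, 419 of them called. The median change over all genes was 0.01 and the middle range, from the 25th to the 75th percentile, ran from -0.35 to 0.34. The change had the same sign in both cultures for all 2321 called genes. The calls were made on these same culture means, which favours such genes, so this count is no separate evidence of agreement. Over all genes the change correlated at 0.921 between cultures, a description across genes that share arrays.

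The arrays were unevenly spread within the early window. The 30 and 38 min arrays correlated with the late arrays at 0.751 to 0.792 over genes, the 46 and 54 min arrays at 0.899 to 0.936, and the late arrays with each other at 0.981 to 0.994. The counts of calls moved with this spread. They were 653 higher and 758 lower without the 30 min array, 289 and 309 without the 38 min array, 721 and 847 without the 46 min array, and 539 and 580 without both the 30 and the 38 min arrays. With the arrays of a single culture as the samples, limma called 104 higher and 167 lower in culture 1, and 0 and 0 in culture 2, where 559 and 686 had an unadjusted p under 0.05. Without the 38 min array the early mean of culture 2 was its 54 min array alone, against the mean of 30 and 46 min in culture 1. Among 1746 probe sets annotated to genes outside S. cerevisiae, which served as background, the median change was 0.15, and 139 were higher and 7 lower when fitted with the genes. Their part in the results was not tested. Their 95th percentile, 9.18, is called the background level below, and 514 genes lay under it in both windows, 75 of them called. It is pooled over arrays. On single arrays the percentile was 8.40 at 38 min, 8.89 to 9.02 on the other early arrays and 9.08 to 9.38 on the late ones. The pooled level thus lay above that of each early array and below those at 78 and 86 min, which limits statements that a dim gene crossed it. The arrays are bulk RNA on a common scale, so fewer cells of a type and less RNA per cell cannot be told apart.

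The early window was therefore also split, after these values were seen. From the 30 and 38 min arrays to the 46 and 54 min arrays, 457 genes (8.39%) were called higher and 448 (8.22%) lower. From the 46 and 54 min arrays to the late window, 539 (9.89%) were called higher and 580 (10.6%) lower. These comparisons share the 46 and 54 min arrays with each other and all their arrays with the main comparison, so their counts are set side by side and no overlap is drawn from them.

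**Figure D1:**
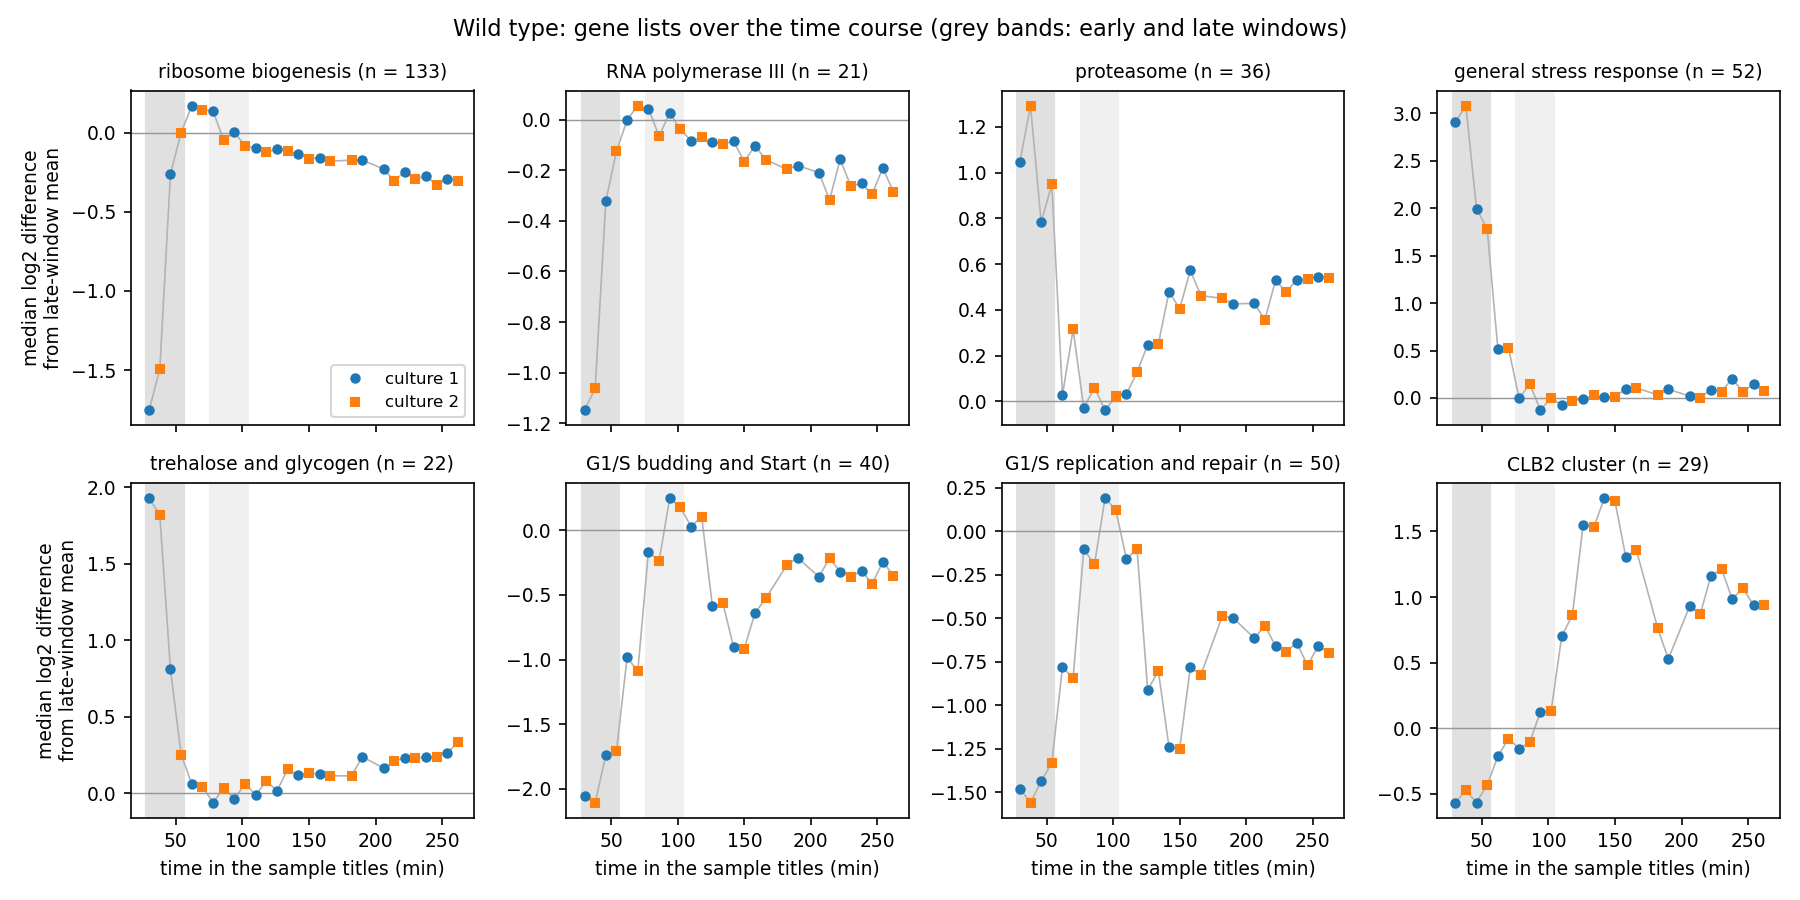
Each panel plots, for a gene list, the median over its members of the log2 level on an array minus the late-window mean of that gene, against the time in the sample titles in minutes, for all 28 wild-type arrays (circles culture 1, squares culture 2; darker band early window, lighter band late window; the line joins the arrays in time). Ribosome biogenesis was close to its late level from 46 min on, the stress and proteasome lists had their largest median step from the 46 and 54 min arrays to those at 62 and 70 min, and the G1/S lists theirs from there to the late window.

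Ribosome biogenesis genes, which process rRNA and assemble the subunits in the nucleolus, rose nearly as a block, and had done so by 46 min. In the late window 117 of 133 measured members were called higher and 1 lower, with a median change of 0.86 against 0.01 over all genes. From 30 and 38 min to 46 and 54 min 123 of the 133 were called higher and 0 lower, with a median rise of 1.49. From 46 and 54 min to the late window 2 were called higher and 1 lower, with a median of 0.13. The list's median level was 10.5 at 30 min, 10.8 at 38 min, 12.03 at 46 min and 12.3 at 54 min, and lay between 12.2 and 12.5 on the late arrays. The early and late arrays of most members thus overlapped: all 4 late arrays lay above all 4 early arrays in 26 of the 133. The count higher was 0 of 133 without the 38 min array, 30 without the 30 min array and 46 without the 46 min array.

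NOP13, a nucleolar RNA-binding protein, had levels of 9.41 at 30 min, 9.73 at 38 min, 11.91 at 46 min and 12.05 at 54 min, and of 12.71, 12.37, 12.62 and 12.46 on the 4 late arrays in time order. It rose by 1.77 ± 0.14 (adjusted p = 0.000575), and its step within the early window was 2.41. KRR1, needed for the small subunit, read 10.11, 9.73, 11.80 and 12.03 on the early arrays in time order and 12.70, 12.28, 12.59 and 12.35 on the late ones. For both genes all late arrays lay above all early arrays, and the gap between the 38 and 46 min arrays was wider than the gap between the windows. IPI3, of the Rix1 complex on pre-60S particles, rose by 1.52 ± 0.23 from early levels of 8.64, 9.28, 10.72 and 11.38. HAS1, an RNA helicase of the nucleolus, read 10.01, 10.71, 12.10 and 12.77 early and 12.91, 12.99, 12.75 and 12.94 late (adjusted p = 0.0043). In HAS1 the 54 min array lay among the late arrays. The member called lower was REH1, a cytoplasmic 60S factor, at -0.88 (adjusted p = 0.00348), a gene singled out after its values were seen.

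The polymerases that make the RNAs of the ribosome moved on the same schedule. RNA polymerase I, which transcribes the rRNA genes, had 10 of 15 members called higher and 0 lower, and its step within the early window was larger than the rest of the change in 15 of 15 members. RPA190, its largest subunit, had early levels of 11.99, 11.42, 13.26 and 13.51 and late levels of 13.71, 13.69, 13.62 and 13.65, a rise of 1.12 ± 0.11 (adjusted p = 0.00112). RPA135, the second-largest subunit, rose by 1.11 ± 0.10, RPA43 by 1.03 ± 0.12 and RPA49 by 0.97 ± 0.17. The late arrays of RPA190 nearly coincided, while its early arrays spanned over 2 log2 units. RNA polymerase III, which makes tRNA and 5S rRNA, had 13 of 21 members called higher and 1 lower, with a median of 0.64. Among its called members RPC34 rose by 1.45 ± 0.14, RPC25 by 1.42 ± 0.26, RPC31 by 1.06 ± 0.13 and RPC82 by 0.92 ± 0.13, all subunits of the enzyme. TFC3, a subunit of the assembly factor TFIIIC, fell by 0.52. When the 38 min array was left out 0 members of either list were called higher by limma, and when the 30 min array was left out 1 and 6 were. Polymerase I kept a count of 3 higher without the 46 min array.

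Proteins of the ribosome itself moved little on these arrays. Of 129 cytosolic ribosomal protein genes by symbol 7 were called higher (0 lower), below the 21.1% of all genes, with a median change of 0.13, and 0 were called by limma without the 38 min array. The list's median level was 14.2 at 30 and 38 min and 14.4 on the 6 later arrays of both windows, close to the top of the scale, since the highest intensity in the series was 33787. Whether bright probe sets understate a change was not tested. RPL9B rose by 0.54 ± 0.12, RPS14B by 0.46 ± 0.10 and RPS28B by 0.38 ± 0.12. The symbol pattern also took in RPP1, a subunit of RNase P and not of the ribosome, which rose by 1.16 ± 0.11. Mitochondrial ribosomal proteins had 2 called higher and 3 lower of 70 (0 and 1 without the 38 min array), with a median of 0.01, and MRP8, whose name dates from an assignment by sequence alone, had the largest change at -1.75. 

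The supply of charged tRNA, initiation factors and nucleotides followed the assembly genes at smaller size. Translation factors had 13 of 35 called higher and 0 lower (median 0.28), among them TIF4631, the scaffold eIF4G, at 0.97 ± 0.12 and TIF3, eIF4B, at 0.67 ± 0.11. GCD10 and GCD14, which together form a tRNA methyltransferase, rose by 1.01 ± 0.13 and 0.66 ± 0.13. Aminoacyl-tRNA synthetases had 9 of 19 called higher and 0 lower, led by VAS1 at 0.63 ± 0.10. Purine and pyrimidine synthesis had 15 of 27 called higher and 2 lower, with a median of 0.48. URA7, CTP synthetase, had early levels of 10.41, 11.19, 12.74 and 13.42 and late levels of 13.48, 13.55, 13.31 and 13.40. Its 54 min array lay among the late arrays, so its windows overlapped. URA1, dihydroorotate dehydrogenase, rose by 1.68 ± 0.11 and IMD4, IMP dehydrogenase, by 1.21 ± 0.13. Translation factors, synthetases and nucleotide synthesis had 0, 0 and 1 members called higher without the 38 min array, 1, 1 and 8 without the 30 min array, and 5, 6 and 12 without the 46 min array.

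Amino acid biosynthesis rose over a longer time, with 27 of 59 called higher and 1 lower and a median of 0.43. The count higher was 7 without the 38 min array and 18 without the 30 min array. Within the early window 7 were called higher and 2 lower, and from 46 and 54 min onward 13 higher and 0 lower. LYS4, homoaconitase of lysine synthesis, read 10.09, 10.18, 11.19 and 11.42 on the early arrays and 12.66, 12.89, 12.59 and 13.07 on the late ones, and rose by 2.08 ± 0.15 (adjusted p = 0.000424). It climbed at each step, by 1.17, 0.94 and 0.55. LEU9, of leucine synthesis, rose by 1.39 ± 0.12 and ARG8, of arginine synthesis, by 1.34 ± 0.18. GLN1, glutamine synthetase, rose by 1.42 ± 0.45, and its early arrays ran from 10.24 at 30 min to 12.51 at 54 min with 12.12 at 38 min and 11.51 at 46 min, so that culture 2 stood higher than culture 1.

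**Figure D2:**
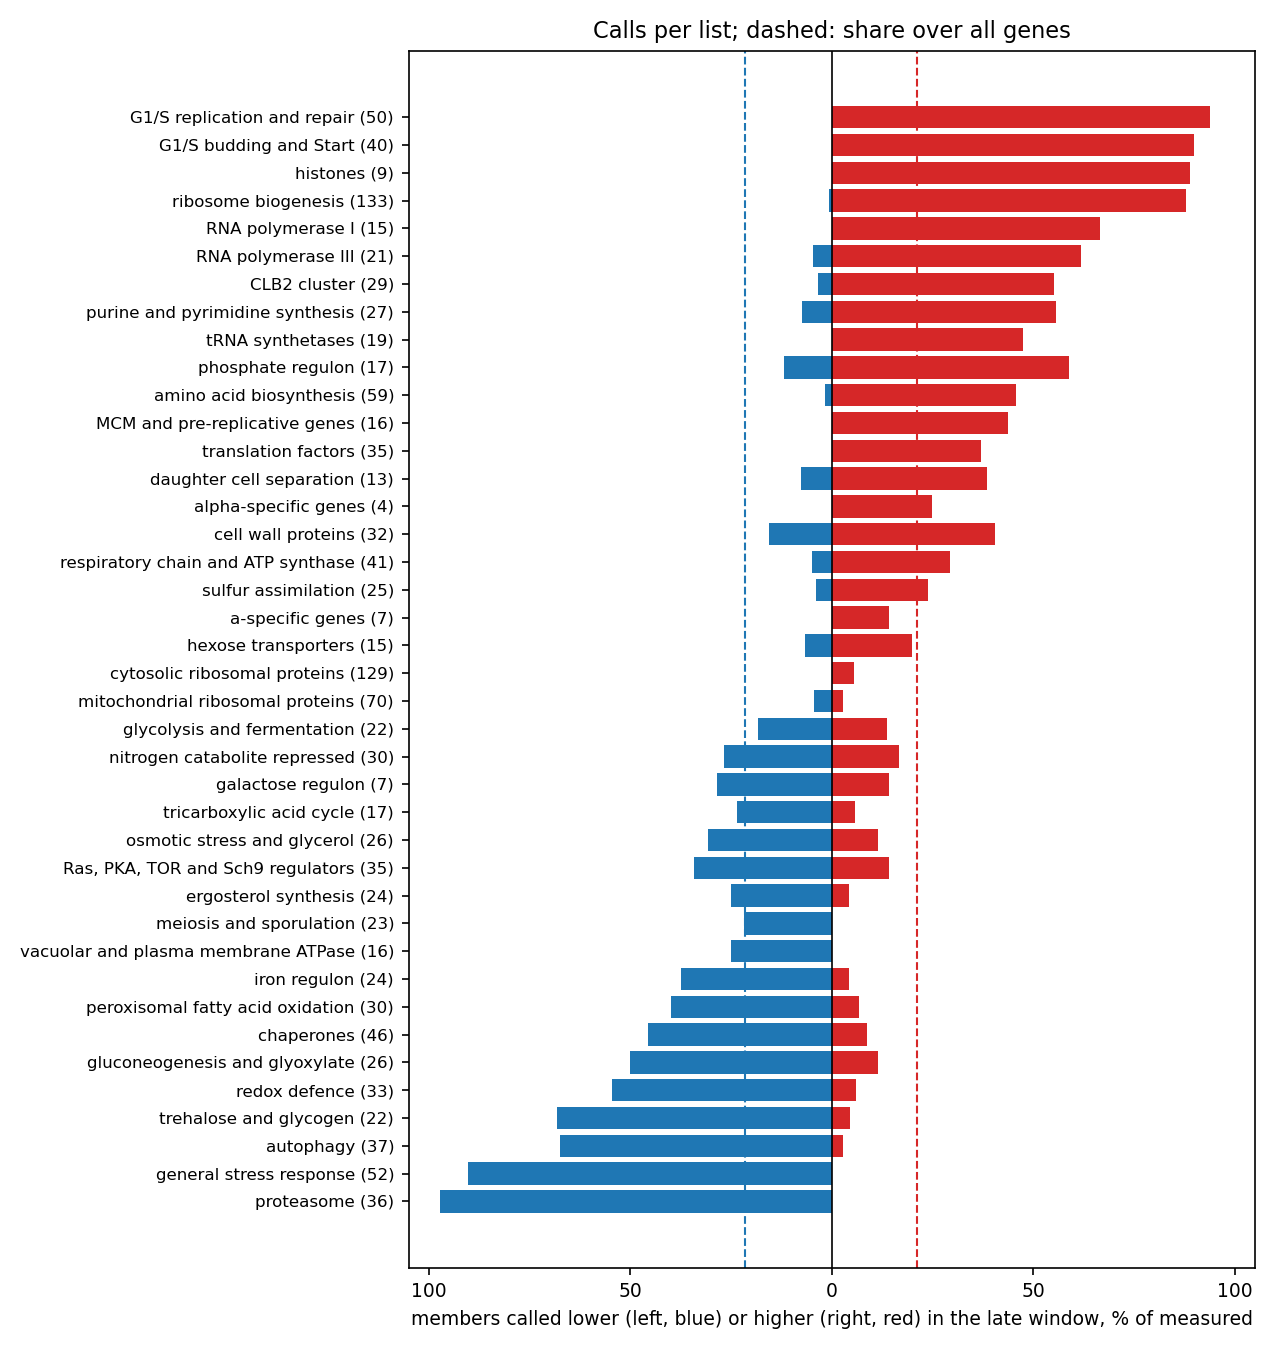
Bars give, for each of the 40 lists (number of measured members in brackets), the percentage of members called higher (right) or lower (left) in the late window; dashed lines mark the shares over all genes, 21.1% and 21.5%. The G1/S, histone and ribosome biogenesis lists extend furthest to the right, and the proteasome and general stress lists furthest to the left. Some genes stand in several lists.

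Genes of the general stress response showed the largest falls in the comparison. Of 52 measured members 47 were called lower and 0 higher, with a median change of -2.45, and all 4 late arrays lay below all 4 early arrays in 46. The list's median level was 13.7 at 30 min, 13.6 at 38 min, 12.5 at 46 min and 12.4 at 54 min, and between 9.05 and 9.21 on the late arrays, at the background level. On the late arrays 28 of the 52 members had a mean under the background level, so that for these the change is limited by background. The count was 45 without the 30 min array, 43 without both the 30 and 38 min arrays, and 32 without the 38 min array. Within the early window 17 were called lower. The median steps were -0.71 to 46 and 54 min, -1.33 from there to 62 and 70 min and -0.50 into the late window.

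MSC1, a gene of unclear function in this response, had the largest fall of all genes that met the naming rule. Its levels were 14.40, 14.56, 13.48 and 13.47 on the early arrays in time order, 9.61 and 10.08 at 62 and 70 min, and 8.45, 8.59, 8.49 and 8.62 on the late arrays. MSC1 fell by 5.44 ± 0.11 (adjusted p = 5.51e-05). TKL2, a transketolase, fell by 5.27 ± 0.15, from 14.41, 14.30, 13.74 and 13.15 to late levels of 8.35 to 8.86. CTT1, cytosolic catalase, fell by 4.98 ± 0.14 from 14.51, 14.57, 13.42 and 12.72 to between 8.70 and 9.04. In all of them the windows were separated by more than 3 log2 units and the late arrays were under background. FMP16, SOL4, ALD3, NQM1, ARO10, HBT1 and GRE1 completed the 10 largest falls, with changes from -4.96 to -4.18. SOL4 and NQM1 encode enzymes of the pentose phosphate pathway, ALD3 an aldehyde dehydrogenase and ARO10 a decarboxylase of amino acid breakdown. NQM1 was slower in culture 2, at 10.28 at 86 min against 9.52 at 78 min, and was 8.63 and 8.99 at 94 and 102 min.

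**Figure D3:**
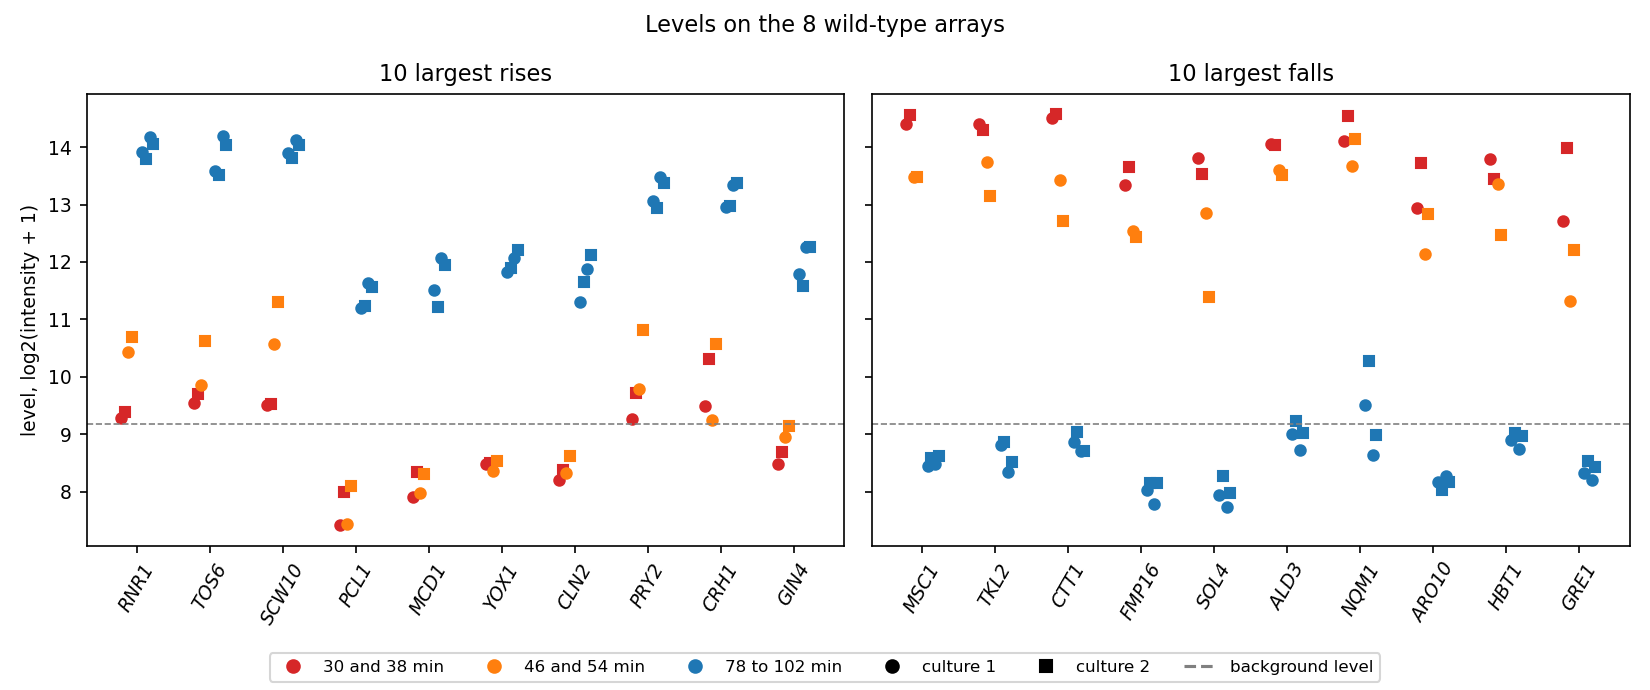
Points give the log2(intensity + 1) level of the 10 genes with the largest rises (left) and falls (right) on the 8 wild-type arrays, coloured by time (red 30 and 38 min, orange 46 and 54 min, blue 78 to 102 min), with circles for culture 1 and squares for culture 2; the dashed line is the background level of 9.18. The genes were drawn from those with separated windows, so the blue points of each lie clear of its red and orange points by selection.

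Storage carbohydrate genes had the larger part of their fall within the early window. Of 22 trehalose and glycogen genes 15 were called lower and 1 higher, with a median change of -1.25. The step to 46 and 54 min was -1.22, with 13 called lower, and the later change had a median of -0.42 with 8 called lower. TPS1, trehalose-6-phosphate synthase, read 14.53, 14.40, 13.68 and 12.93 early and 11.02, 11.31, 11.10 and 11.34 late, and fell by 2.69 ± 0.18 (adjusted p = 0.00033). TSL1, a regulatory subunit of the same complex, read 14.35, 14.11, 13.03 and 10.49 early and 9.10 to 9.43 late, and NTH1, neutral trehalase, changed by -2.86 ± 0.18. PGM2, phosphoglucomutase, fell by 2.84 ± 0.23. At 54 min TSL1 in culture 2 was already nearer to its late than to its earliest level. The count lower was 3 of 22 without the 38 min array.

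Some other genes of low-glucose growth fell with them. HXT5, a glucose transporter of slow-growing cells, had levels of 12.55, 12.65, 9.93 and 9.87 early and 8.61, 8.68, 8.85 and 8.61 late, and fell by 2.57 ± 0.11 (adjusted p = 9.63e-05). HXT3 and HXT4, also glucose transporters, rose by 0.72 ± 0.20 and 0.95 ± 0.24. For both the 38 min array stood alone below the other early arrays, 12.07 against 12.89 to 13.04 and 9.10 against 10.33 to 10.42. Of 15 hexose transporters and sensors 3 were called higher and 1 lower, counts that include GAL2 at 0.59, and limma called 0 without the 38 min array. The share higher is near the 21.1% of all genes. GLK1, glucokinase, changed by -3.15 ± 0.16 and HXK1, a hexokinase, by -2.23 ± 0.34. The glycolysis list of 22 had 3 called higher, 4 lower (2 and 2 without the 38 min array) and a median of -0.07. Both its shares are below those of all genes, 21.1% and 21.5%. Gluconeogenesis and glyoxylate genes had 13 of 26 lower and 3 higher, led by GUT2, glycerol-3-phosphate dehydrogenase of mitochondria, at -1.83. MAE1, malic enzyme, was among the 3 higher at 1.63 ± 0.15. Peroxisomal fatty acid oxidation had 12 of 30 lower and 2 higher. POT1, its thiolase, read 11.20 at 38 min against 8.89, 8.52 and 8.86 on the other early arrays, so that its change of -1.30 rests on the 38 min array, while PEX11, which shapes peroxisomes, rose by 1.62 ± 0.12. Gluconeogenesis and peroxisomal genes had 5 of 26 and 2 of 30 called lower without the 38 min array, and 6 and 3 without the 30 min array.

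Mitochondrial genes did not move as a block. The respiratory chain and ATP synthase list had 12 of 41 called higher and 2 lower, with a median of 0.24, and 1 higher once the 38 min array was left out, or 4 once the 30 min array was. The shares over all genes were 21.1% higher and 21.5% lower. ATP19 rose by 0.84 ± 0.13 and COX9 by 0.70 ± 0.17. The 2 called lower were COX5B, the cytochrome oxidase isoform of low oxygen, at -2.68 and NDE2, an external NADH dehydrogenase, at -1.21. The tricarboxylic acid cycle list had 1 of 17 higher and 4 lower, with CIT1, citrate synthase, at -1.06, and 0 higher and 1 lower without the 38 min array. Its share lower is near the 21.5% of all genes.

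Genes for breaking down proteins fell almost without exception. Of 36 proteasome genes 35 were called lower, with a median change of -1.02 and a range from -1.35 to -0.58, and none rose. Members of the stress list ran from -5.44 to 0.39. The fall came late: 1 of 36 was called lower from 30 and 38 min to 46 and 54 min, and 35 from there to the late window. RPN2, a scaffold of the 19S cap, read 13.74, 13.66, 13.33 and 13.29 early, 12.78 and 12.50 at 62 and 70 min, and 12.19, 12.25, 12.24 and 12.26 late, and fell by 1.27 ± 0.10 (adjusted p = 0.000605). RPT2, an ATPase of the cap, changed by -1.35 ± 0.13, RPN6 by -1.23 ± 0.11 and RPT3 by -1.21 ± 0.14. The late arrays of RPN2 nearly coincided and lay below every early array. RPN4, the transcription factor that drives these genes, was the member not called, at -0.58 (adjusted p = 0.0876), with early levels of 12.52, 13.29, 12.07 and 12.53 and late levels of 11.87 to 12.18. After 102 min the list's median rose again by 0.42. The count was 34 to 35 when any of the 4 early arrays was left out.

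Autophagy and vacuolar proteolysis fell in 25 of 37 genes, with 1 higher and a median of -0.66. ATG8, the ubiquitin-like protein of the autophagosome, read 12.48, 12.50, 11.01 and 10.70 early and 8.98, 8.98, 8.89 and 8.84 late, and fell by 2.75 ± 0.11 (adjusted p = 9.42e-05). PRB1, vacuolar protease B, changed by -2.14 ± 0.11, ATG19 by -1.92 ± 0.11 and ATG33 by -1.72 ± 0.11. ATG8 changed by -1.64 within the early window and by -1.93 after it. The list had 15 called lower in the earlier step and 12 in the later, and in the main comparison 8 without the 38 min array and 15 without the 30 min array.

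Of 46 chaperone genes 21 were called lower and 4 higher, with a median of -0.28. The counts were 12 and 1 without the 38 min array and 14 and 2 without the 30 min array. HSP42, a small heat shock protein, fell by 3.54 ± 0.17 from early levels of 13.56, 13.36, 11.48 and 10.87 to late levels of 8.62 to 8.93. SSE2 changed by -2.81 ± 0.15, HSP78 by -2.44 ± 0.12 and HSP104, the disaggregase, by -2.37 ± 0.15. HSP42, HSP104 and, of the redox genes below, CTT1 are also in the general stress list. The 4 called higher, named after their values were seen, were JEM1 at 1.11 and LHS1 at 0.41, both of the endoplasmic reticulum, and ZUO1 at 0.46 and SSZ1 at 0.57, which act on the ribosome. HSF1, the heat shock factor, was at -0.41 (adjusted p = 0.0762). Redox defence had 18 of 33 lower and 2 higher, led by CTT1 and PRX1, mitochondrial peroxiredoxin, at -2.24, with 8 lower and 0 higher without the 38 min array and 11 lower without the 46 min array. Osmotic stress and glycerol genes had 8 of 26 lower and 3 higher, with a median of -0.13, against 21.5% lower and 21.1% higher over all genes. Its members GPD1 and GPP2 are also in the general stress list. STL1, the glycerol importer, read 14.01, 14.24, 10.23 and 11.29 early and 8.56 to 8.84 late, with a step of -3.37 within the early window. It fell to a level under background in both cultures. The medium held sorbitol at all times, and no array without it was used here.

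Of 21 regulators followed whatever their values, 10 (47.6%) passed the test, near the 42.6% of all genes called in either direction, and 11 did not. XBP1, a repressor made in stressed and resting cells, fell by 1.95 ± 0.14 from levels of 11.10, 11.07, 9.37 and 8.77 to between 8.03 and 8.18, and USV1, a stress-induced regulator, changed by -1.28 ± 0.19. GIS1, a regulator of resting-phase genes, was called lower at -0.54 ± 0.12, but had early levels of 11.69, 11.76, 10.57 and 10.12 around late levels of 10.31 to 10.61, and its sign turned without the 30 and 38 min arrays. Among 35 genes of Ras, PKA, TOR and Sch9 signalling 5 were called higher and 12 lower, against 21.1% and 21.5% over all genes. PDE1, a cAMP phosphodiesterase, changed by -1.57 ± 0.14, YAK1, a kinase that restrains growth, by -1.46 ± 0.12, and RAS2 by -1.22 ± 0.20. TPK2, a catalytic subunit of protein kinase A, read 11.84, 11.59, 10.27 and 9.59 early and 9.12 to 9.49 late (adjusted p = 0.00167). These falls include genes that act for and against growth signalling. Of this list 0 members were called by limma without the 38 min array, and 7 were called lower without the 30 or without the 46 min array.

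On the side of ribosome genes, TOD6, a repressor of ribosome biogenesis, rose by 0.85 ± 0.12 (adjusted p = 0.00289). IFH1, a coactivator of ribosomal protein genes, rose by 0.47 ± 0.13 and FHL1, which recruits it, by 0.38 ± 0.12. IFH1 read 9.83, 9.88, 10.82 and 11.25 early and 10.72 to 11.05 late, so its windows overlapped and its sign turned without the 30 and 38 min arrays. The regulators SFP1 (0.09), STB3 (0.27), DOT6 (0.36), MSN2 (-0.45), MSN4 (0.39), RIM15 (-0.26), HAP4 (0.29) and MIG1 (0.31) did not pass the test, nor did HSF1, RPN4 and CLN3, described with their pathways.

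Genes of Start and S phase had their largest step last, and the budding and Start list had the largest median rise of the 40 lists. The G1/S budding and Start list had 36 of 40 members called higher and 0 lower, with a median of 1.86, and the G1/S replication and repair list 47 of 50 and 0, with a median of 1.41. Within the early window 8 and 5 were called higher, and from 46 and 54 min to the late window 35 and 45. The median steps of the budding list were 0.11, 0.56 and 1.05, and those of the replication list 0.18, 0.59 and 0.81, so each step was larger than the one before. The counts were 29 and 40 without the 38 min array.

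RNR1, the large subunit of ribonucleotide reductase, rose by 4.04 ± 0.12 (adjusted p = 6.16e-05), the largest rise named. It read 9.29, 9.38, 10.43 and 10.70 on the early arrays, 12.46 and 12.63 at 62 and 70 min, and 13.92, 13.79, 14.18 and 14.06 on the late ones. CLN2, a G1 cyclin, read 8.21, 8.38, 8.33 and 8.63 early, 9.14 and 9.58 at 62 and 70 min, and 11.30, 11.66, 11.87 and 12.12 late, a rise of 3.35 ± 0.15. RNR1 had begun to rise within the early window, while CLN2 was under background on all 4 early arrays. PCL1, a cyclin of the Pho85 kinase, rose by 3.67 ± 0.21, MCD1, the cohesin subunit, by 3.54 ± 0.17, and YOX1, a repressor of early cell cycle genes, by 3.53 ± 0.11. TOS6, SCW10, PRY2, CRH1 and GIN4 completed the 10 largest rises, from 3.89 to 3.15. TOS6, SCW10 and CRH1 encode cell wall proteins, PRY2 a secreted sterol-binding protein and GIN4 a kinase of the bud neck.

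Among the regulators of Start, CLN3, the cyclin that triggers it, was not called at 0.38 (adjusted p = 0.0961), with levels of 11.31 to 11.88 early and 11.77 to 12.23 late. SWI4, the DNA-binding subunit of SBF, rose by 1.86 ± 0.16 from early levels of 8.68, 8.82, 9.11 and 8.68 to late levels of 10.87, 10.30, 10.86 and 10.68. CLN1, the other late G1 cyclin, rose by 2.87 ± 0.12. WHI5, the inhibitor of SBF, rose too, by 1.01 ± 0.16, with early levels of 8.62 to 9.18 and late levels of 9.65 to 10.28. The windows of SWI4, CLN1, CLN2 and WHI5 did not overlap, and those of CLN3 did.

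POL30, the replication clamp PCNA, rose by 2.92 ± 0.10 and POL1, the catalytic subunit of DNA polymerase alpha, by 3.02 ± 0.12. POL30 read 10.69 to 10.90 on all 4 early arrays, 12.50 and 12.58 at 62 and 70 min, and 13.56 to 13.86 late. Among the genes of origin licensing MCM7, a helicase subunit, read 10.04, 9.96, 10.97 and 11.28 early and 12.29, 12.52, 11.93 and 12.14 late, with 12.09 and 12.32 at 62 and 70 min. Its 62 min array lay within its late range, and that of POL30 below. CDC6, the loader of the helicase, rose by 1.58 ± 0.11 and MCM2 by 0.96 ± 0.12. Of 16 MCM and pre-replicative genes 7 were called higher and 0 lower, and 3 higher without the 38 min array.

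Histone genes, which are made in S phase, had 8 of 9 called higher and 0 lower, with a median of 0.84, and 5 without the 38 min array. Their median steps were -0.02, -0.27 and 1.02, so the rise fell within the late step. HTB2, a histone H2B, read 11.24, 11.38, 12.03 and 11.84 early, 13.17 and 13.10 at 78 and 86 min, and 14.04 and 13.96 at 94 and 102 min. In both cultures its second late array stood above its first. HHO1, linker histone H1, rose by 1.52 ± 0.17 and HHF1, a histone H4, by 0.85 ± 0.18. HTA2, a histone H2A, rose by 0.89 ± 0.10, and is the 1 gene whose probe sets differed by over 1 log2 unit in the change.

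The cell wall list had 13 of 32 called higher and 5 lower, or 9 and 1 without the 38 min array. Its members CRH1, EXG1 and GAS5 are also in the G1/S budding and Start list. ECM33, needed for wall integrity, rose by 2.55 ± 0.13 and SIM1, a SUN-family protein, by 2.94 ± 0.12. CRH1, a transglycosylase of chitin and glucan, read 9.50, 10.31, 9.25 and 10.57 early and 12.96, 12.97, 13.35 and 13.37 late, with culture 2 above culture 1 in the early window.

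The CLB2 cluster, genes of the G2 to M transition, had 16 of 29 called higher and 1 lower, with a median of 0.53, and 8 higher without the 38 min array. The mean of the arrays after 102 min lay above the early mean by 1.55 in the list's median. In 8 of the 29 both windows were under the background level. CLB2 itself read 8.11 to 8.28 early and 8.66, 8.82, 9.67 and 9.48 late, a rise of 0.97 ± 0.11, and reached its highest wild-type level, 12.1, at 126 min. PHO3, an acid phosphatase in this cluster, rose by 2.03 ± 0.11 and FAR1, an inhibitor of G1 cyclin kinase, by 1.22 ± 0.12, both from the 46 min array on.

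Nutrient regulons gave mixed results. The phosphate regulon had 10 of 17 called higher and 2 lower, with a median of 0.61, and 1 higher without the 38 min array or 5 without the 30 min array. PHO84, the high-affinity phosphate transporter, read 11.34 and 10.87 at 30 and 38 min, 14.45 and 14.34 at 46 and 54 min, and 14.30 to 14.43 on the late arrays. Its step within the early window was 3.29, and the change after it was -0.03. PHO11, an acid phosphatase, rose by 2.12 ± 0.23, which is uncertain since PHO12 is a near-identical copy. PHM8, a phosphatase, changed by -2.02 ± 0.15 and GPP2, glycerol phosphatase, by -1.86 ± 0.25. Both are also members of the general stress list. The iron regulon had 9 of 24 lower and 1 higher (5 lower without the 38 min array), led by HMX1, heme oxygenase, at -2.70, and TIS11, which degrades mRNAs when iron is scarce, at -2.29. Its median change was -0.22 in culture 1 and -0.87 in culture 2. FRE4, a reductase, read 11.79, 12.25, 9.91 and 12.29 early and 9.26 to 9.94 late, so that the windows overlapped through the 46 min array. In nitrogen catabolite repression 5 of 30 were higher and 8 lower, shares near those of all genes, 21.1% and 21.5%, and 0 and 3 without the 38 min array. The counts higher were also 0 without the 30 min array and 1 without the 54 min array. The 5 higher, named after their values were seen, were AGP1, MEP1, MEP2, DAL80 and UGA3, at 0.43 in UGA3 to 0.60 in AGP1. CAR2, ornithine transaminase, changed by -3.25 ± 0.41 and PUT4, the proline permease, by -2.84 ± 0.10. UGA1 and UGA2, both of GABA use, changed by -2.10 ± 0.15 and -1.84 ± 0.16.

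Sulfur assimilation had 6 of 25 higher and 1 lower, with a median of 0.03. Its share higher is near the 21.1% of all genes. MMP1, a transporter of S-methylmethionine, rose by 1.49 ± 0.15 through its 94 and 102 min arrays, 11.75 and 11.63 against 10.44 and 10.02 at 78 and 86 min. SAM1, S-adenosylmethionine synthetase, rose by 1.06 ± 0.18, MET6, methionine synthase, by 0.82 ± 0.15 and MET8 by 0.72 ± 0.12. Ergosterol synthesis had 1 of 24 higher, ERG4 at 0.60 ± 0.10, and 6 lower, among them HMG2 at -0.63, ERG9, squalene synthase, at -0.62 and ERG28 at -0.52. That share lower is near the 21.5% of all genes, and the count was 0 without the 38 min array and 1 without the 30 or the 46 min array. Proton pumps of vacuole and plasma membrane had 4 of 16 lower, also near that share, from -0.51 in STV1 to -0.47 in VMA13, with 0 lower without the 38 min array and 2 without the 30 or the 46 min array. The galactose regulon had 1 of 7 higher and 2 lower, PGM2 and GAL10 at -0.37, and 0 in either direction by limma without the 38 min array. PGM2 is also in the trehalose and glycogen list.

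The labelled mating type was checked against its markers. Of 6 markers of a cells 5 were above the background level on all 8 arrays, among them MFA1 at 13.5 to 14.5 and STE6 at 12.2 to 12.7, and 1, STE2, the receptor for alpha factor, was called, at 0.36 ± 0.11, and not without the 30, 38, 46, 78 or 86 min array. Of 4 markers of alpha cells STE3 and MF(ALPHA)1 were under background on all 8 arrays, MF(ALPHA)2 was above it on the 4 late arrays alone and was called higher at 0.68 but not when any of the 4 early arrays was left out, and SAG1 was at 10.1 to 11.2. Of 7 markers of meiosis none was above background on all 8 arrays, and 4 were above it on no array. SMK1 was above it on 7 of the 8, and IME2 and NDT80 on 2 each. The meiosis list of 23 had 5 called lower and 0 higher, a share near the 21.5% of all genes. In 18 of the 23 both windows were under the background level, and limma called 0 lower without the 38 min array. Of 6 genes that mark newborn daughter cells DSE1 and DSE4 were under background on all 8 arrays. CTS1, the chitinase that separates daughter from mother, was at 9.97 to 10.8 early and 9.84 to 10.5 late, and reached 13.9 at 182 min. EGT2 and SCW11, also wall enzymes of separation, were above background on all 8 arrays, EGT2 at 10.1 to 11.7 early and SCW11 at 9.87 to 10.2. The daughter separation list had 5 of 13 called higher, led by BUD9 at 1.15 ± 0.17, DSE2 at 0.87 ± 0.13 and ASH1 at 0.77 ± 0.11, and 1 lower, PIR1 at -0.71, or 2 higher and 0 lower without the 38 min array.

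The change was next set against the wild-type change 96 min later, from the arrays at 126 to 150 min to those at 182 and 190 min, with a single array per culture at the end. The later windows do not hold the same stages, since CLB2 was at its highest at 126 min and under background in the early window. The change from 30 to 102 min was called more positive than the later one in 1129 genes (20.7%) and more negative in 1081 (19.8%). These calls share the early and late arrays with the main comparison. Over all genes the first change correlated with the later one at -0.02, a description across genes. Ribosome biogenesis had a median change of 0.86 at first and -0.05 later, with 118 of 133 members called more positive at first. The stress list had -2.45 and 0.07, with 47 of 52 more negative, and the proteasome -1.02 and 0.11, with 35 of 36. In these lists the later change was near 0.

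The G1/S lists had positive medians again, of smaller size. The budding list had medians of 1.86 and 0.47 and the replication list 1.41 and 0.48, with 35 of 40 and 41 of 50 called more positive at first. RNR1 changed by 4.04 and then by 0.91, and CLN2 by 3.35 and then 1.22. The CLB2 cluster had medians of 0.53 and -1.06, and the daughter separation list 0.29 and 0.97, with DSE2 at 0.87 and then 2.27. RAX2, a bud site protein, changed by 2.07 and then by -0.89, and ARO10 by -4.75 and then by 1.82.

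**Figure D4:**
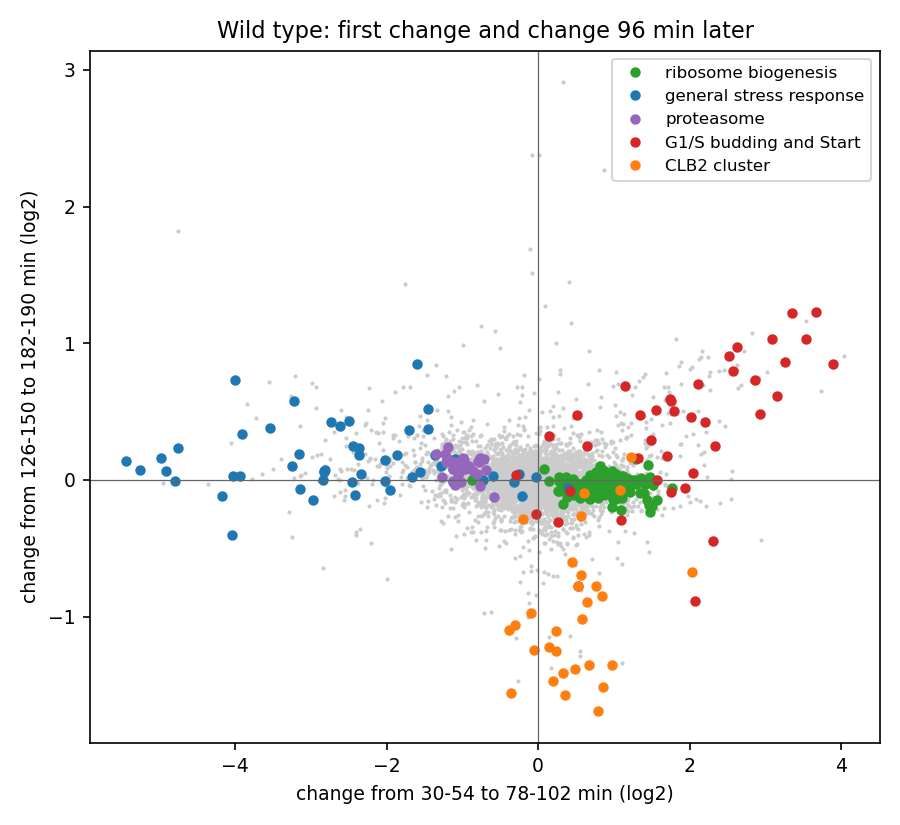
Each point is a gene, with the wild-type log2 change from the early to the late window on the horizontal axis and the log2 change 96 min later on the vertical axis; coloured points are members of 5 lists and grey points all other genes. Stress, proteasome and ribosome biogenesis genes spread along the horizontal axis near 0 on the vertical one, while CLB2 cluster genes lie low at -1.06 in the median.

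At the same times most genes called in wild type changed in the same direction in the mutant. Of the 1152 genes called higher in wild type 1135 had a positive change in the mutant, and of the 1169 lower 1159 a negative one. Over all genes the changes correlated at 0.924, a description across genes. The stress list had a median of -2.45 in wild type and -1.99 in the mutant, the proteasome -1.02 and -0.76, ribosome biogenesis 0.86 and 0.43, and the G1/S replication list 1.41 and 1.84. Single early arrays also differed between strains. Relative to each strain's late mean, ribosome biogenesis at 38 min lay at -1.49 in wild type and -0.45 in the mutant. The stress list lay at 1.78 and 0.48 at 54 min, but at 2.907 and 3.075 at 30 min. The G1/S replication list lay at -1.56 and -1.97 at 38 min. These differences in timing were not tested. In the median over members of the mutant minus the wild-type change, sulfur assimilation lay furthest from 0 of the 40 lists, at -0.67. Its median change was 0.03 in wild type and -0.48 in the mutant, where its median lay 1.24 above its late mean at 46 min. The mutant change was called more positive than that of wild type in 1 gene (0.0184%) and more negative in 2 (0.0367%), with 216 genes at an unadjusted p under 0.05. The median SE of the difference was 0.21, and a difference that misses the threshold does not show equal change. MSC1 read 14.6, 14.1, 13.3 and 10.4 on the early mutant arrays in time order, with an SE of its difference of 0.73.

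KIN3, a kinase of the CLB2 cluster outside the naming rule and given here because it was 1 of 3 calls, stayed under background in wild type, at 8.24 to 8.53 early and 8.06 to 8.56 late, and read 9.32 to 9.90 early and 11.5 to 11.9 late in the mutant. The difference in change was 2.26 ± 0.20 (adjusted p = 0.0371). PHO84 was already at 14.3 and 14.4 at 30 and 38 min in the mutant, and its change differed by -1.77 ± 0.18. STR3, cystathionine beta-lyase of sulfur metabolism, read 8.26 to 8.43 early in wild type and 8.55, 8.23, 9.38 and 9.74 late, against 8.27, 9.25, 11.3 and 10.8 early and 8.18 to 9.11 late in the mutant, a difference of -1.98 ± 0.20. No mutant array of KIN3 lay within the wild-type range of these windows, PHO84 differed at 30 and 38 min alone, and STR3 peaked at 46 and 54 min in the mutant and at 94 and 102 min in wild type. With culture as a replicate block the adjusted p was 0.166 for KIN3 and STR3 and 0.222 for PHO84, and none was called when any of the 4 cultures was left out. With all arrays and culture random the adjusted p was 0.978 for PHO84 and STR3 and 9.35e-05 for KIN3. Without the 30 and 38 min arrays the difference was -0.18 for PHO84, -3.09 for STR3 and 2.1 for KIN3. STR3 was under background on the wild-type early and the mutant late arrays, and with values floored at the background level its difference was -1.13 (adjusted p = 0.204).

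**Figure D5:**
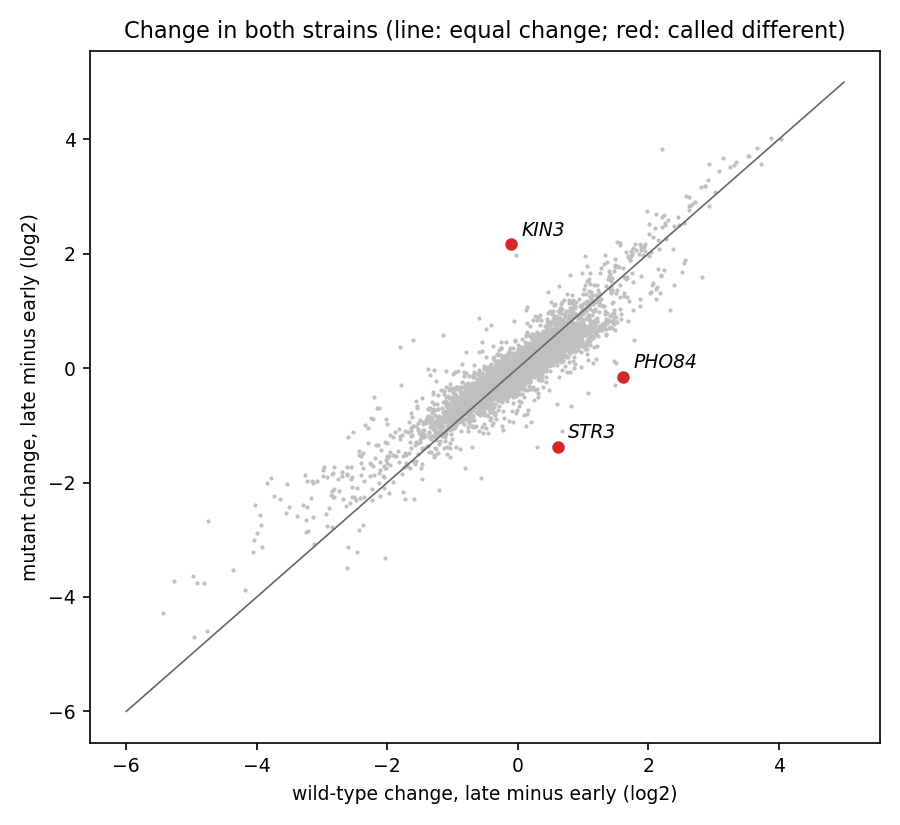
Each point is a gene, with its log2 change from the early to the late window in wild type on the horizontal axis and in the cyclin mutant on the vertical axis; the line marks equal change and the 3 red points are the genes whose changes were called different. Most genes lie along the line, with a correlation of 0.924.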

How the data were processed

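The authors deposited a table of linear intensity values per probe set for 58 Affymetrix arrays (range 86.1 to 33787), and the submitters' processing notes name affy 1.8.1. Array means of 2067 to 2121 put the arrays on a common scale; how background was corrected and arrays were scaled is not given here. Per the labels' protocols total RNA was labelled by the one-cycle procedure. From the deposited intensities log2(intensity + 1) was computed here. Of 10928 probe sets 5498 were named to a gene of the R64 annotation and gave 5449 genes; the brightest probe set was used for 47 genes with several, and 120 genes have a probe set of a kind that can match related genes. No count or depth exists for arrays, and the 2 cultures per group limit the precision.

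Arrays of a culture within a window were averaged, and culture means were compared with limma 3.58.1 in R 4.3.3 (lmFit, eBayes, Benjamini-Hochberg over 5449 genes, threshold 0.05). The fit was tested on simulated data. Arrays of a culture share that culture, so the culture numbers pair the windows; the correlation of same-culture deviations was 0.185. The windows, the 40 gene lists and the naming rule were chosen with earlier results of these data known. Some genes stand in several lists, so the counts of different lists are not independent. Named were the 10 largest rises and falls among called genes with separated windows and a level above background, up to 4 called members per list by size, 21 regulators, and the 5 most positive and negative calls of each other contrast among called genes; others are named where stated. Alternatives covered scaling, pseudocount, background filter and floor, culture as block, and arrays or cultures left out. Promoter and protein sequences were not used here.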

Additional observations from a re-analysis of the deposited data

Results flagged for a closer look

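PHO84 and STR3 had wild-type and mutant changes that differed by limma's test of the difference, by -1.77 and -1.98. With culture as a replicate block limma's adjusted p was 0.222 and 0.166, and with culture random over all arrays 0.978 for both, so neither call held in these fits. At the background floor it was 0.0829 and 0.204. Both stayed called with median centring (0.0353), quantile normalization (0.0452) and the shared spread over 6 window groups (0.00253). The calls thus depended on the setting.

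In other results 1 of the 4 arrays of a window stood apart from the other 3, measured as the gap to its nearest neighbour over the whole range of the 4. Among list medians this share was 0.866 for autophagy in the late window, 0.877 for peroxisomal fatty acid oxidation in the early window, 0.864 for daughter cell separation in the early window and 0.892 for the alpha-specific genes in the late window. Among named genes on the early arrays it was 0.894 for BUD9, 0.868 for CCC2, 0.954 for DSE2, 0.844 for HXT3, 0.934 for HXT4, 0.862 for POT1 and 0.856 for SAM1. The 38 min array stood apart in BUD9, HXT3, HXT4, POT1 and SAM1, the 46 min array in CCC2 and the 54 min array in DSE2. On the late arrays it was 0.831 for MET8 and 0.836 for RPA135. In all 80 list medians and 358 windows of named genes were examined, and chance alone gives about 5% of such windows.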

How the results depend on the processing

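Of the alternatives to the late minus early fit, median centring, quantile normalization, no pseudocount, the background filter, the background floor, all arrays with culture as a random block and the shared spread kept both counts of called genes within 1.5 times the reported 1152 and 1169. With 1 array left out the counts ran from 289 to 1183 higher and from 309 to 1190 lower, lowest without the 38 min array. With 1 culture left out they ran from 0 to 104 and from 0 to 167; limma then had only the arrays of the other culture as samples, and 559 and 686 genes had an unadjusted p under 0.05 where 0 were called. They were 539 and 580 without the 30 and 38 min arrays, 598 and 585 with the 62 and 70 min arrays as late window, and 457 and 448 for 46 and 54 min against 30 and 38 min, which was added after seeing the data. The cause was not tested beyond the fewer arrays these use. Against the later windows, the 1129 more positive genes became 672 when all arrays entered with culture random and 570 without the 30 and 38 min arrays, and the 1081 more negative genes became 587 without the latter; with 1 culture left out the counts ran from 0 to 9 and from 0 to 52, where limma found 452 and 506 at an unadjusted p under 0.05 for the 0 counts.

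With culture as a replicate block on culture means, the paired fit called 1188 higher and 1227 lower in the main comparison, and all 8 arrays with culture as a fixed term 887 and 1067; it changed no count of calls by over 1.5 times except that of the strain difference, which fell to 0 and 0. There 185 and 112 genes had an unadjusted p under 0.05. The strain difference also had 0 and 0 calls at the background floor (193 and 114 unadjusted) and with any culture left out, 1 negative call with the background filter, 0 negative calls with culture as a random block (78 unadjusted), and 9 without the 30 and 38 min arrays.

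Among 179 named genes the sign turned in 8 for 46 and 54 min against 30 and 38 min: YOX1 at -0.039, PEX11 at -0.10, HHO1 at -0.58, HHF1 at -0.024, NUD1 at -0.17, TIS11 at 0.14, SPO11 at 0.019 and MRP2 at -0.020. It turned with the 62 and 70 min arrays as late window in HTA2 at -0.23, HHF1 at -0.28 and GAL10 at 0.028, and without the 30 and 38 min arrays in PHO84 at -0.029, IFH1 at -0.11 and GIS1 at 0.15. No sign turned under scaling, pseudocount, filter or floor in a named gene. With 2 cultures the precision is low, and dim genes are limited by background.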
